A study of Mus musculus with 12 samples.

Results

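The hypothalamic neuropeptide genes described here are 10 genes chosen by symbol for the peptides they encode, which serve growth, feeding and water balance: Avp, Oxt, Pmch, Hcrt, Agrp, Pomc, Trh, Ghrh, Cartpt and Gal. All 10 were found among the 55487 genes of the counts table. The table holds total RNA sequencing of liver and brain from 6 mice, 3 labelled Mettl5 knockout (KO, mice A, C and F) and 3 labelled WT (mice B, D and E), so that each tissue has 3 libraries per genotype. METTL5 is the methyltransferase that places N6-methyladenosine on 18S rRNA, and the question put to the mice was what its loss does in a whole animal. The letters name separate mice, and the labels give neither age, sex, litter nor preparation batch. The paper describes this RNA-seq as 3 pairs of KO and control mice and shows reads of a littermate pair. Which letters form a pair is not labelled, so the comparisons of KO with WT here treat the mice as unpaired.

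The KO allele came from a line with a floxed exon 2 of Mettl5, made in ES cells of a C57bl/6 x 129S6 hybrid and backcrossed to B6, which was crossed to a CMV-cre line for deletion throughout the body. No single cell type was therefore targeted. No group received a treatment, and the tissue is the brain with no region named in the labels. Control mice carry the label WT, although the accompanying paper describes the controls of this experiment as heterozygous in places, and WT is used here as the label has it. The study as a whole used mice of both sexes over a range of ages.

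Neuropeptides are cut from precursor proteins, packed into dense-core granules and released from small, sharply placed groups of neurons. Oxt and Avp encode oxytocin and vasopressin, made by the large neurons of the paraventricular and supraoptic nuclei that send axons to the posterior pituitary. Pmch and Hcrt encode melanin-concentrating hormone and the orexins, 2 peptides of separate neurons in the lateral hypothalamus that act on feeding and on wakefulness. Agrp and Pomc mark opposed neurons of the arcuate nucleus: AgRP drives feeding and blocks melanocortin receptors, whereas Pomc yields the melanocortin that restrains feeding. Trh and Ghrh encode the releasing hormones for thyrotropin and growth hormone. Cartpt and Gal encode the CART peptide, which restrains feeding, and galanin. Trh, Cartpt and Gal are made in many other parts of the brain as well, Trh among them in the olfactory bulb, and Pomc is also a major product of the anterior and intermediate pituitary.

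Oxt and Avp are neighbours on chromosome 2 and arose by duplication, and their sequences are shown because they decide how well the counts of this pair can be told apart. In GRCm38, Oxt lies at chr2:130576173-130577054 on the plus strand and Avp at chr2:130580620-130582554 on the minus strand, tail to tail with 3566 bp between them. The longest stretch that the 2 transcripts share without a mismatch is 127 bases long, is coding throughout, crosses from exon 1 into exon 2 in both genes and lies in the part that encodes the neurophysin carrier protein. It spans chr2:130576328-130576715 on the plus strand in Oxt and chr2:130581133-130582411 on the minus strand in Avp, introns included.
Oxt and Avp shared run: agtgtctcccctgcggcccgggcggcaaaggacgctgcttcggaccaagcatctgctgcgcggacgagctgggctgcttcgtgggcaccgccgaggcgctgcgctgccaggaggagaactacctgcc
Of the 438 positions at which a 100-base read can start within the Oxt transcript, 28 (6.39%) lie wholly inside this run, and so do 28 of 478 (5.86%) for Avp. The remaining start positions of both transcripts reach at least 1 base that differs or lies outside the run.

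Upstream sequence is shown for Oxt and Avp, which lay at 0 in the same library, for Trh and Gal, whose KO and WT libraries did not overlap, and for Pomc, whose level turned on 1 library. The bases are the 250 before the RefSeq start of each gene in GRCm38.p6, written 5′ to 3′ on the gene's own strand, and capitals mark AGGTCA or its reverse complement TGACCT, the core letters recognised by nuclear receptors such as those for thyroid hormone and retinoic acid.
Oxt, chr2:130575919-130576168, plus strand: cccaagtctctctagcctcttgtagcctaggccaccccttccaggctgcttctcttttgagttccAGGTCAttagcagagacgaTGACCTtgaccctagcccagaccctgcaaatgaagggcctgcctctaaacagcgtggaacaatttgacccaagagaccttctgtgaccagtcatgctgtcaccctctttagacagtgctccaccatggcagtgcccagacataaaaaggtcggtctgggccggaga
Avp, chr2:130582589-130582838, minus strand: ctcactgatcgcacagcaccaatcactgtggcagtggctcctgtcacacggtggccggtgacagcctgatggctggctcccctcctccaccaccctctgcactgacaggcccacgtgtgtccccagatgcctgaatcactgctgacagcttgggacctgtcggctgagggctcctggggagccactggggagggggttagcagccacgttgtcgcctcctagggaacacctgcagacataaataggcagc
Trh, chr6:92244651-92244900, minus strand: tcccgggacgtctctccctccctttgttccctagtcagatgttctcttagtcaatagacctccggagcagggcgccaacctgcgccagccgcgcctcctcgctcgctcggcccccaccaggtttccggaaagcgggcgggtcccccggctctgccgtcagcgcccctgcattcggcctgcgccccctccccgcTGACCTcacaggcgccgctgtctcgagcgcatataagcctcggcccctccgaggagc
Gal, chr19:3414545-3414794, minus strand: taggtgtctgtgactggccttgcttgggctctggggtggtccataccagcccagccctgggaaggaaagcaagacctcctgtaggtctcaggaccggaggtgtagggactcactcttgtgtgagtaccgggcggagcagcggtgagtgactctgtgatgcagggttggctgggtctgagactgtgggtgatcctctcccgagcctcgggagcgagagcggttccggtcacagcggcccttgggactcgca
Pomc, chr12:3954695-3954944, plus strand: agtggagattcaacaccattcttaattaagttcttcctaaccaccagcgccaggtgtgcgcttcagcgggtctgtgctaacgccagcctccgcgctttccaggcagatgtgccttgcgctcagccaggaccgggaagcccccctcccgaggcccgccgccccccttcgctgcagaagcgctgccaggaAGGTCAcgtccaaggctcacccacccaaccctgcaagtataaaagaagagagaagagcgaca
Searched on both strands, these letters were present in 5 of the 10 RefSeq promoters of 9 members, against 14.0% of 32851 promoters of the same length over all genes. They began 185 and 166 bases before the start in Oxt, 57 before it in Trh and 62 before it in Pomc, and 179 and 84 bases before the starts of the 2 Ghrh promoters. A match is a run of letters only and was not tested as a binding site. Avp and Gal had no match in this window.

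Brain libraries held 14403309 to 18365114 reads over genes, and 4 of them stood apart in ways that bear on these genes. KO brain A was the highest library for 7 of the 10 members, a count for which no share over all genes was worked out. Its 14 listed cerebellar genes summed to 304 normalised counts against 717 to 2071 in the other 5 libraries, and its share of mitochondrial rRNA reads, 31.6%, was the highest. KO brain C had no read of Oxt, Avp or Hcrt. KO brain F carried transcripts of pituitary hormones that were close to absent elsewhere, with 256 reads of Gh (growth hormone) and 391 of Prl (prolactin) against at most 5 and 2 in any other brain library. WT brain E was the lowest library for 4 of the 10 members. In all, mitochondrial rRNA took 21.4% to 31.6% of the reads in KO brain and 7.63% to 17.7% in WT brain, and mice E and F, 1 in each genotype, had nearly no Y-linked reads (20 and 1 in brain). The brain identity of the libraries was clear: 5 general brain markers (Snap25, Syt1, Rbfox3, Gfap and Mbp) summed to between 3071 and 3649 normalised counts in brain and to at most 18.6 in liver, whereas 5 liver markers summed to at most 31.7 in brain. Mettl5 itself lay at 3.70 ± 0.328 normalised counts in KO and 6.65 ± 2.14 in WT brain (SD, n = 3), with every KO library below every WT library and a log2 fold change of -0.84 (SE 0.27, adjusted p = 0.373 by edgeR), or -0.55 without WT brain B.

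All values below named CPM are counts scaled to library size by TMM normalisation (counts per 1000000 reads), fold changes are KO over WT on the log2 scale, and adjusted p-values come from edgeR's quasi-likelihood test with Benjamini-Hochberg adjustment over the 17188 genes that passed its filter on low counts in brain. A gene was called at an adjusted p under 0.1. The filter passed 7 of the 10 members, and Hcrt, Agrp and Ghrh did not pass. None of the 7 was called, against 0.0640% of all genes tested (11 of 17188). At an unadjusted p under 0.05 there was 1 of 7, Trh, against 11.0% of all genes. DESeq2 gave an adjusted p to the same 7 and called none of them, against 1.58% of the 16987 genes to which it gave one. With no filter on low counts edgeR called 1 of the 10, Trh, against 3.15% of 31780 genes.

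Vasopressin and oxytocin transcripts, the water-balance pair, varied more between mice of a genotype than between genotypes. Oxt stood at 5.60, 0 and 5.33 CPM in KO mice A, C and F and at 1.67, 4.11 and 0.35 CPM in WT mice B, D and E. In reads these values were 69, 0 and 81 against 26, 82 and 7. KO mice A and F were the highest of the 6 and KO mouse C the lowest, so the WT values lay inside the range of the KO values. The means were 3.64 ± 3.16 CPM in KO and 2.04 ± 1.90 CPM in WT (SD, n = 3), with a log2 fold change of 0.82 (SE 1.10, adjusted p = 0.778 by edgeR). Without KO brain C it was 1.41 (SE 0.67, adjusted p = 0.302 by edgeR), and without WT brain D it was 1.89. It was 0.39 without KO A, 0.43 without KO F, 0.33 without WT E and -0.16 with the level of hypothalamic regulator genes as a covariate. The genes behind that covariate also had log2 fold changes above 0, so it overlaps with genotype. Since tissue was homogenised whole, fewer neurons of a type, or fewer such neurons within the dissected piece, cannot be told apart from less transcript per neuron, for Oxt as for every gene here.

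Avp followed the same mice. Its levels were 4.79, 0 and 2.7 CPM in KO A, C and F and 1.61, 4.06 and 0.85 CPM in WT B, D and E, from 59, 0, 41, 25, 81 and 17 reads. The genotypes overlapped fully, at 2.49 ± 2.40 CPM in KO and 2.17 ± 1.67 CPM in WT (SD, n = 3). The fitted log2 fold change of 0.18 (SE 1.0, adjusted p = 0.956 by edgeR) became 0.76 without KO brain C and -0.67 without KO brain A, so its sign rested on single mice. A level of 0 reads in KO brain C allows up to 3 reads, or 0.215 CPM, for each of these genes; such limits cover counting error only. Together the pair had 128, 0 and 122 reads in the KO libraries and 51, 163 and 24 in the WT libraries.

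The balance within the pair differed less than its amount. Oxt made up 53.9% of the Oxt and Avp reads in KO A (95% Wilson interval 45.3 to 62.3), 66.4% in KO F (57.6 to 74.2), 51.0% in WT B (37.7 to 64.1) and 50.3% in WT D (42.7 to 57.9). In WT E the share was 29.2%, with an interval of 14.9 to 49.2 from its 24 reads. The intervals, which cover counting error only, overlap between A, B and D, and that of KO F does not overlap that of WT E. KO C had no read from which to form a share.

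The lateral hypothalamic genes showed the gap in KO brain C again. Pmch, the most abundant member per length of transcript, was at 12.17, 0.43 and 8.75 CPM in KO A, C and F and at 7.14, 7.36 and 2.31 CPM in WT B, D and E. KO C held 6 reads where the other 5 libraries held 46 to 150. Apart from C the KO mice lay above all WT mice, and with C the groups overlapped, at 7.12 ± 6.04 against 5.60 ± 2.86 CPM (SD, n = 3). The log2 fold change was 0.34 (SE 0.84, adjusted p = 0.884 by edgeR) with all libraries and 0.90 (SE 0.43, adjusted p = 0.297 by edgeR) without KO C. Its sign turned without KO A (-0.27), without WT E (-0.025) and with the regulator covariate (-0.33).

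Hcrt, the orexin gene, was much scarcer, with 18, 0 and 5 reads in KO A, C and F and 3, 3 and 0 in WT B, D and E. These correspond to 1.46, 0 and 0.33 CPM in KO and 0.19, 0.15 and 0 CPM in WT. Mouse A stood above the rest, and the libraries with no read, KO C and WT E, were also the 2 lowest for Pmch. The difference in means, 0.596 ± 0.766 against 0.114 ± 0.101 CPM (SD, n = 3), gave an exact permutation p of 0.5, where 3 against 3 libraries cannot give a two-sided p below 0.1. At this depth 4 of the 6 libraries were at or under the 3-read floor for Hcrt, and edgeR with no filter gave a log2 fold change of 2.29 (SE 0.97, adjusted p = 0.282), which was not called.

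**Figure D1:**
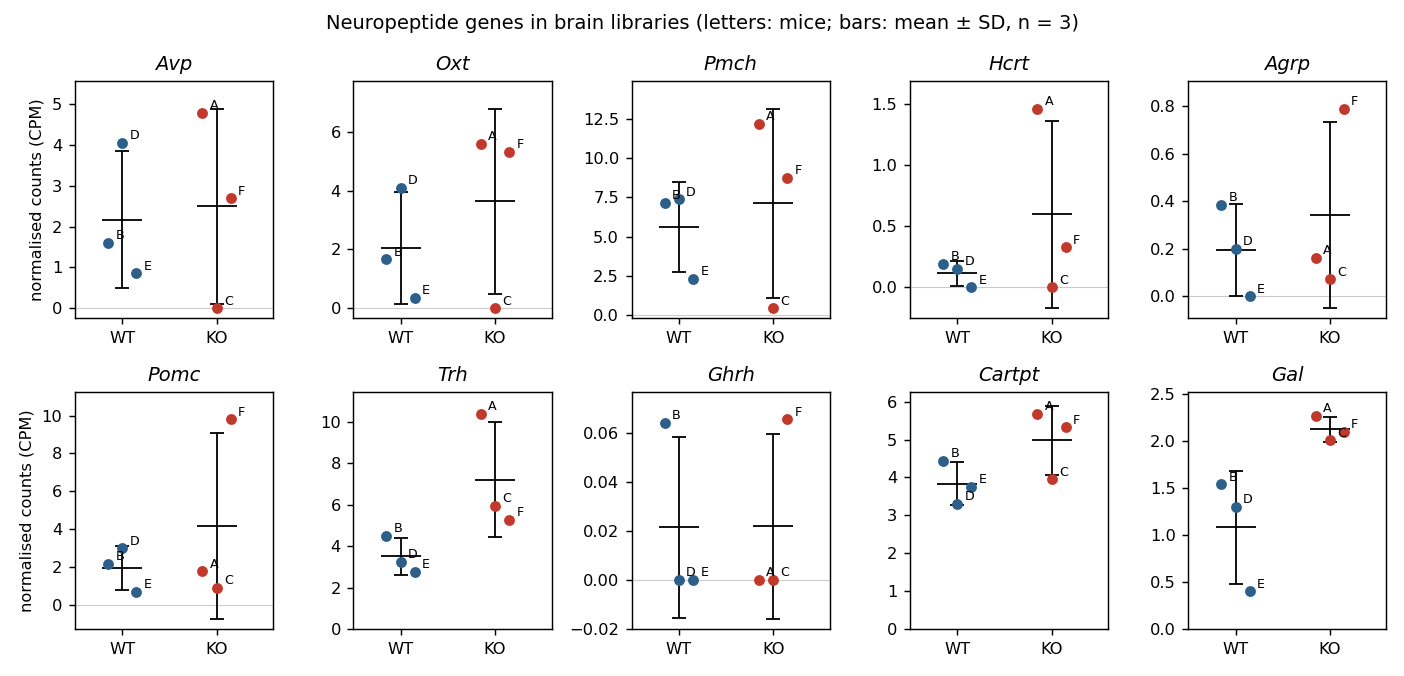
Normalised counts (CPM, linear axes, each panel with its own scale) of the 10 neuropeptide genes in the 6 brain libraries, WT in blue and KO in red, with the mouse letter beside each point and the mean and SD (n = 3) as black bars, which reach below 0 where the SD exceeds the mean. KO C sits at 0 for Avp, Oxt and Hcrt, KO F is alone at the top for Pomc at 9.80 CPM, and the KO points lie above the WT points without overlap for Trh and Gal.

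Among the arcuate genes, Pomc turned on a single mouse. Its level was 1.78, 0.93 and 9.80 CPM in KO A, C and F and 2.19, 3.0 and 0.70 CPM in WT B, D and E, from 22, 13, 149, 34, 60 and 14 reads. KO F lay more than 3-fold above every other library, and KO A and C lay within the WT range. The log2 fold change was 1.10 (SE 0.84, adjusted p = 0.620 by edgeR) with F and -0.54 (adjusted p = 0.896 by edgeR) without it. With all libraries and a Y-linked covariate it was 0.55 (adjusted p = 0.849 by edgeR). KO F is also the library with the Gh and Prl reads and had 14 reads of Cga, the shared subunit of pituitary glycoprotein hormones, against at most 6 elsewhere; Cga and the other hormone subunit genes named next were chosen after their values were seen. The 14 pituitary genes listed summed to 45.4 CPM in KO F and to 1.0 to 2.80 CPM in the other 5 libraries. Of the defining markers, Lhb and Fshb (gonadotropin subunits) had no read in any brain library, KO F included, and Tshb (thyrotropin) had none in KO F. Only Oacyl of the 14 passed the filter, with a log2 fold change of 1.07 (adjusted p = 0.428 by edgeR), and Oacyl is not a hormone gene. The part of pituitary RNA in the Pomc value of KO F was not tested.

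**Figure D2:**
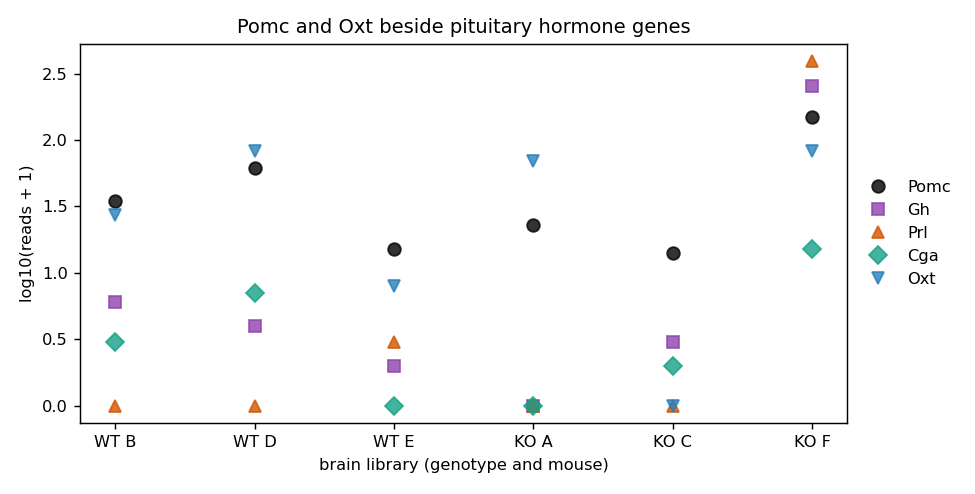
Reads of Pomc and Oxt beside the pituitary hormone genes Gh, Prl and Cga in each brain library, as log10 of reads plus 1, with 1 symbol per gene and the libraries named by genotype and mouse. Gh (256 reads) and Prl (391 reads) are high in KO F alone, where Pomc has its highest count of 149, while Oxt has 81 reads there and 82 in WT D.

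Agrp, the opposing arcuate gene, gave 2, 1 and 12 reads in KO A, C and F and 6, 4 and 0 in WT B, D and E. Mouse F was again the highest and WT E the lowest, and the groups overlapped, at 0.341 ± 0.391 CPM in KO and 0.195 ± 0.193 CPM in WT (SD, n = 3, exact permutation p = 0.7). Its counted span also shares bases with other gene models on the same strand, Gm45855 and Gm5914, so reads there could be left out or split. Cartpt varied least in proportion among the feeding genes. It was at 5.68, 3.95 and 5.33 CPM in KO A, C and F and 4.44, 3.30 and 3.76 CPM in WT B, D and E, so KO C lay between WT E and WT B and the groups overlapped. The means of 4.98 ± 0.915 and 3.83 ± 0.570 CPM (SD, n = 3) gave a log2 fold change of 0.38 (SE 0.25, adjusted p = 0.571 by edgeR).

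Of the releasing hormones, Trh did not overlap between the genotypes and Ghrh was near 0 throughout. Trh was at 10.38, 5.96 and 5.26 CPM in KO A, C and F and at 4.50, 3.25 and 2.76 CPM in WT B, D and E. Every KO library lay above every WT library, from 128, 83 and 80 reads against 70, 65 and 55, and mouse A was well above the other KO mice. With means of 7.2 ± 2.78 and 3.50 ± 0.898 CPM (SD, n = 3), the log2 fold change was 1.04 (SE 0.32), with an unadjusted p of 0.00863 and an adjusted p of 0.355 by edgeR. The exact permutation p was 0.1, the smallest possible here. The call depended on the filter: with no filter on low counts edgeR's adjusted p was 0.0236, and over all alternatives it ran from 0.0236 to 0.875. Without KO A the log2 fold change was 0.68 (adjusted p = 0.808 by edgeR).

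Markers of the olfactory bulb, a region that also makes Trh, moved with genotype. Of 13 listed bulb genes 12 were higher in KO and 7 were called (Omp, S100a5, Frmd7, Cdhr1, Sp8, Doc2g and Shisa3), all higher. Over all genes tested 0.0640% were called. The list was chosen with earlier results of these data known, so its counts are a description and not a test. DESeq2 called 8, all higher, and edgeR with no filter 11, of which 10 were higher and Calb2 was lower. The median log2 fold change of the list was 2.85. Omp, which marks olfactory sensory neurons and their axon endings, was at 11.3 ± 3.25 CPM in KO and 0.863 ± 0.227 CPM in WT (SD, n = 3). The summed level of the bulb list was 245 to 320 CPM in KO and 182 to 325 CPM in WT, with the widely expressed Slc17a6, Calb2 and Tshz1 as its most abundant genes and 0 of its genes at 0 in any KO library. The part of olfactory bulb tissue in the Trh difference was not tested. Ghrh gave 1 read in KO F and 1 in WT B and none in the other 4 brain libraries, so its level lay under the 3-read limit in every library. The exact permutation p was 1.0, and a difference was not detectable at this depth.

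Gal was the other gene without overlap between genotypes. Galanin transcripts stood at 2.27, 2.01 and 2.10 CPM in KO A, C and F and at 1.54, 1.30 and 0.40 CPM in WT B, D and E. The KO libraries were close together and WT E was far below the other WT libraries, with 8 reads against 24 and 26. The means were 2.13 ± 0.132 and 1.08 ± 0.602 CPM (SD, n = 3), with a log2 fold change of 0.99 (SE 0.47, adjusted p = 0.466 by edgeR) and an exact permutation p of 0.1. Without WT E the log2 fold change was 0.59. Trh and Gal are 2 of the 7 members tested, and 8.40% of all genes tested had every KO library above every WT library.

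**Figure D3:**
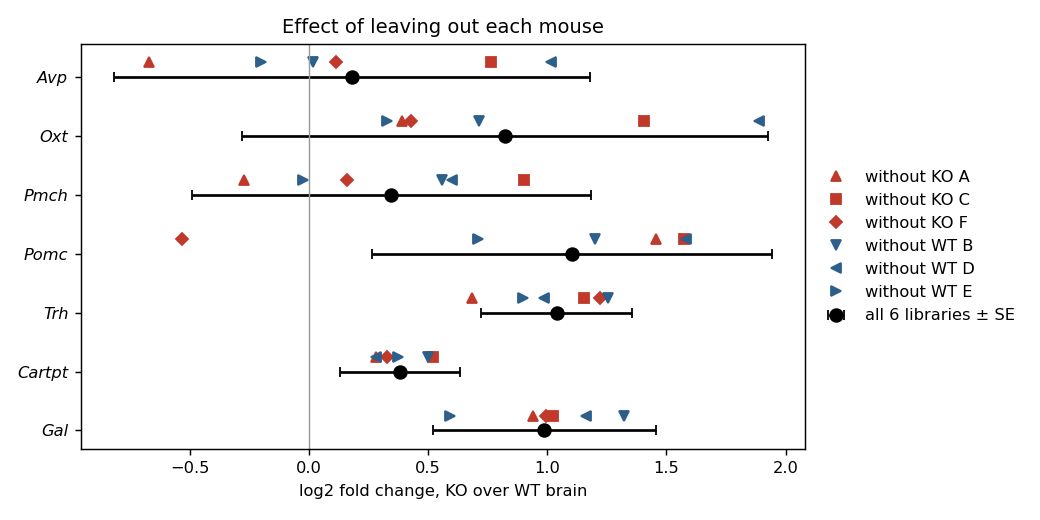
Log2 fold change of KO over WT brain for the 7 genes that passed the filter, with all 6 libraries (black, bars are SE) and with each mouse left out in turn (red symbols for KO mice, blue for WT mice). Trh, Gal, Cartpt and Oxt stay above 0 throughout, whereas Pomc falls to -0.54 without KO F and Avp to -0.67 without KO A.

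As a group, all 7 genes tested had a fitted log2 fold change above 0, as had 49.8% of all genes tested, with a median of 0.82 against -0.0017 over all genes. With the regulator covariate 4 of the 7 turned below 0, Avp (-0.48), Oxt (-0.16), Pmch (-0.33) and Pomc (-0.39). That covariate averages the 8 regulators that passed the filter, all with log2 fold changes above 0. It therefore overlaps with genotype, and the change of sign cannot separate regulator level from genotype. The members do not vary independently, since they are read from the same 6 pieces of tissue. Summed over the 10 genes, the level was 44.3, 13.4 and 40.5 CPM in KO A, C and F and 23.7, 26.7 and 11.1 CPM in WT B, D and E. KO A and F lay above all WT mice, and KO C lay near WT E at the bottom. Mouse A had the highest level of 7 members and mouse F of the other 3. The matching shares over all genes were not worked out, so these counts are not read as a trait of the members.

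KO C and WT E were the 2 lowest libraries for 6 of the 10 members: Avp, Oxt, Pmch, Hcrt, Agrp and Pomc. Hcrt and Agrp had at most 1 read in either, and the share of all genes lowest in this pair was not worked out. KO C was the lowest for Avp, Oxt and Pmch, 3 of the 7 tested, against 13.0% of all genes tested, and had no read of 4 members, Avp, Oxt, Hcrt and Ghrh. WT E was the lowest for Pomc, Trh and Gal, 3 of the 7 tested, against 11.8% of all genes, and also for Agrp. The 2 libraries differed in Trh and Gal, which lay above every WT library in KO C (5.96 and 2.01 CPM) and lowest of all in WT E (2.76 and 0.40 CPM). Cartpt was at 3.95 CPM in KO C and 3.76 CPM in WT E, both above WT D at 3.30 CPM.

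Abundance was compared between members as CPM per kilobase of the counted exons, averaged over the 6 brain libraries. Pmch led at 8.49 (range 0.575 to 16.2), followed by Oxt at 5.29 (0 to 10.4), Avp at 4.04 (0 to 8.29), Trh at 3.87 (1.99 to 7.5) and Cartpt at 3.45 (2.59 to 4.45). The ranges of these 5 overlap, so neighbours in this order do not differ beyond the spread between mice. Pomc at 2.33 (0.533 to 7.44) and Gal at 2.04 (0.509 to 2.88) came next. Hcrt at 0.474, Agrp at 0.265 and Ghrh at 0.0325 were the lowest, and all 3 fell to 0 in at least 1 library.

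Liver, the second tissue of each mouse, served as the background level. Of the 10 genes 7 had no read in any of the 6 liver libraries. Pmch had 1 read there and Trh had 2, while Pomc had 20 in all, at most 7 in a library, with 4, 7 and 1 in KO and 4, 1 and 3 in WT. No member passed the filter in the comparison of KO with WT liver. The 7 members that passed the filter over all 12 libraries did so through their brain reads, so that 7 of 7 were called higher in brain, where 47.0% of the 18944 genes tested were, was fixed by the filter and says nothing further of them.

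Transcription factors and other regulators listed for hypothalamic tissue were read beside the peptides. Some, such as Otp, are also expressed elsewhere, so the list does not measure hypothalamic content alone. Of its 19 genes 8 passed the filter, and all 8 had a log2 fold change above 0, with a median of 0.30. None was called by edgeR or DESeq2, 2 had an unadjusted p under 0.05, and edgeR with no filter called 1, Magel2, higher. The most abundant were Lhx9, with a log2 fold change of 0.13 (SE 0.29, adjusted p = 0.877 by edgeR), Irs4 at 0.22 (adjusted p = 0.875 by edgeR) and Magel2, an imprinted gene rich in the hypothalamus, at 1.09 (SE 0.39, adjusted p = 0.394 by edgeR). The list summed to 20.0, 16.9 and 21.2 CPM in KO A, C and F and to 12.1, 20.6 and 8.77 CPM in WT B, D and E. By this sum, in which Lhx9 and Magel2 weigh most, WT E was the lowest. The number of the 19 genes without a read was 7 in KO C, 8 in WT E, 6 in WT B and 3 in each other library. The list score was 0.14, -0.15 and 0.54 in KO A, C and F and -0.30, 0.38 and -0.61 in WT B, D and E.

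Within KO C the regulators were uneven. Sim1, a factor of the paraventricular and supraoptic neurons, had 1 read there, which was 0.07 CPM against 0.49 to 1.84 CPM in the other 5 libraries. Otp, which is needed for many of the same neurons but is also expressed elsewhere, had its highest level there, 1.72 CPM. The 14 genes listed for midbrain and hindbrain summed to 17.0 CPM in KO C and 16.2 CPM in WT D, and to 3.16 CPM in KO F and 3.11 CPM in WT E. Of these 14 genes 5 were tested, 2 above and 3 below 0 with a median of -0.092, and none was called by either tool (0 at an unadjusted p under 0.05). Tph2, a marker of serotonin neurons, had 3.59 CPM in KO C against 0.451 to 2.06 CPM elsewhere, Slc6a3, the dopamine transporter, had a log2 fold change of 0.57 (adjusted p = 0.652 by edgeR), and Gata3 reached 2.37 CPM in KO C and 3.55 CPM in WT D. Sim1 and Otp were looked at singly after their values were seen. The ratio of the summed members to the summed regulators was 2.22, 0.791 and 1.91 in KO A, C and F and 1.96, 1.30 and 1.27 in WT B, D and E. On the log2 scale the ratio averaged 0.58 ± 0.80 in KO and 0.56 ± 0.35 in WT (SD, n = 3), a difference of 0.018. The part of where each brain was cut in any of these differences was not tested.

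**Figure D4:**
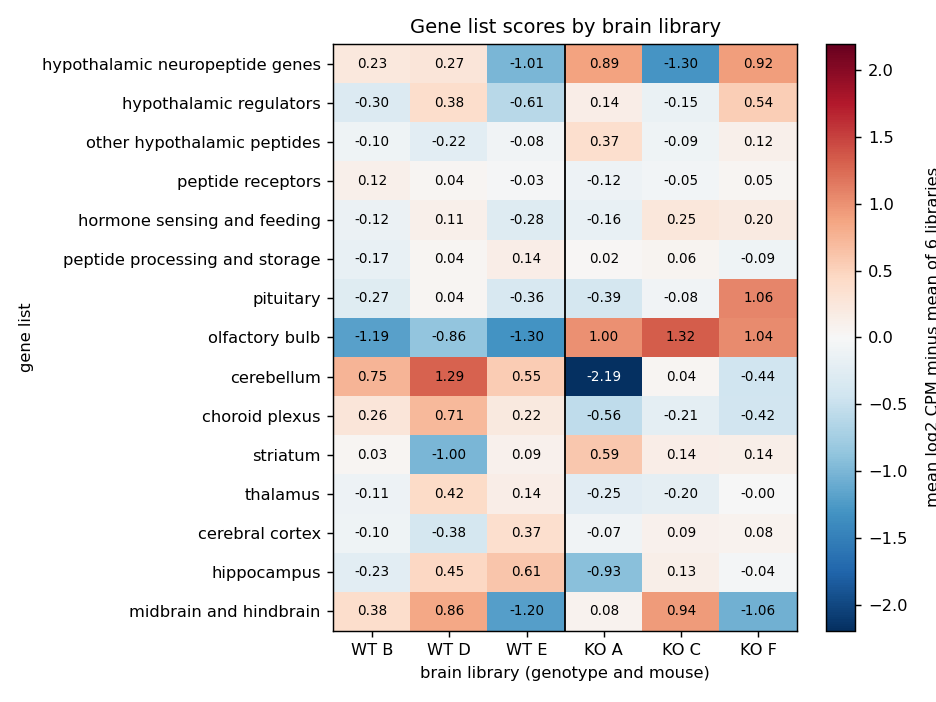
Score of each gene list in each brain library, the average over its genes of the difference in log2 CPM from that gene's average in the 6 libraries, WT to the left and KO to the right of the black line, red above and blue below the mean. The neuropeptide genes are lowest in KO C (-1.30) and WT E (-1.01), the pituitary list is high in KO F (1.06), and the olfactory bulb list is above 0 in the 3 KO and below 0 in the 3 WT libraries.

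Other peptides of hypothalamic neurons gave no call with the filter. Of 24 listed, 15 passed the filter, 13 lay above 0 and 2 below on the log2 fold change scale, and the median was 0.29. None was called by edgeR or DESeq2, and 2 had an unadjusted p under 0.05. The 3 most abundant are widely made outside the hypothalamus: Penk (enkephalins) had a log2 fold change of 0.42 (SE 0.23, adjusted p = 0.510 by edgeR), Cck (cholecystokinin) of 0.06 and Sst (somatostatin) of -0.058. Npy, made with AgRP in arcuate neurons but also across the cortex, was at 9.24 ± 2.13 CPM in KO and 10.5 ± 1.61 CPM in WT (SD, n = 3). Tac1 (tachykinins) stood at 0.92 (SE 0.34, adjusted p = 0.400 by edgeR) and Nts (neurotensin) at 0.91 (SE 0.43, adjusted p = 0.467 by edgeR), and both were called higher by edgeR with no filter on low counts. Npy, Tac1 and Nts were named after their values were seen.

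The receptors for these peptides, and the enzymes that process them, gave no call by edgeR with the filter. Of 17 receptors 9 passed the filter, with 6 log2 fold changes above 0 and 3 below, a median of 0.19 and 0 genes at an unadjusted p under 0.05. Npy1r, a neuropeptide Y receptor, was at 0.19, Mchr1, the receptor of melanin-concentrating hormone, at 0.19 and Hcrtr2, an orexin receptor, at 0.44 (SE 0.33, adjusted p = 0.607 by edgeR). Of 12 genes of hormone sensing and feeding 10 passed, 7 above and 3 below 0, with a median of 0.13 and 3 genes at an unadjusted p under 0.05. Lepr, the leptin receptor, was at 0.42 (SE 0.26, adjusted p = 0.554 by edgeR), Insr at -0.071 and Stat3 at 0.0068. All 14 genes of peptide processing and storage passed, 6 above and 8 below 0, with a median of -0.016 and 2 genes at an unadjusted p under 0.05. Among them Cpe, a carboxypeptidase that trims precursors, was at -0.031, Pcsk1n at -0.28 and Chgb, a granule protein, at -0.67 (SE 0.19, adjusted p = 0.345 by edgeR), with every KO library below every WT library. Scg2, another granule protein, was at 0.55 (SE 0.17, adjusted p = 0.359 by edgeR) with every KO library above every WT library, and was named after its values were seen. DESeq2 called Chgb lower and no other gene of these 3 lists. With no filter, edgeR called 4 of their genes: Chgb and Nhlh2, a transcription factor of feeding neurons, lower, and Scg2 and Th, the enzyme that makes the dopamine precursor, higher.

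Markers of other brain regions were read in the same libraries. These lists were also chosen with earlier results known, so their counts are a description and not a test. Over all genes tested 11.0% had an unadjusted p under 0.05, and 49.8% had a log2 fold change above 0. All 14 cerebellar genes and all 14 choroid plexus genes had log2 fold changes below 0, with medians of -1.47 and -0.87, no call by edgeR, 13 and 9 genes at an unadjusted p under 0.05, and 3 and 5 calls by DESeq2. Abundant examples were Cbln3 (-1.81), Car8 (-1.70) and Calb1 (-0.73) of the cerebellum and Ttr (-0.97), Enpp2 (-0.61) and Kl (-0.98) of the choroid plexus. Of the 11 striatal genes all lay above 0, with a median of 0.57, 1 unadjusted p under 0.05 and no call by either tool; Adcy5 was at 0.36, Pde10a at 0.38 and Ppp1r1b at 0.31. Of 11 thalamic genes 9 lay below 0, with a median of -0.38, 3 unadjusted p under 0.05, no call by edgeR and 1 by DESeq2; Rora was at -0.38, Ntng1 at 0.21 and Calb2 at -0.48. Of 9 hippocampal genes tested 8 lay below 0, with a median of -0.70, 3 unadjusted p under 0.05, no call by edgeR and 2 by DESeq2; Neurod2 was at -0.89, Prox1 at -0.76 and Wfs1 at -0.38. Of 11 cortical genes 7 lay above 0, with a median of 0.089, 1 unadjusted p under 0.05 and no call by edgeR with the filter or by DESeq2; Mef2c was at 0.30, Rasgrf2 at 0.089 and Nptx1 at -0.76. With no filter edgeR called 4 cerebellar, 7 choroid plexus, 2 thalamic, 3 hippocampal genes and 1 cortical gene (Nptx1), all lower, and no striatal gene. Whether these values reflect tissue content or expression cannot be told apart here, and their part in the levels of the neuropeptide genes was not tested.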

How the data were processed

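Organs were homogenised in Trizol, and the authors made stranded total RNA libraries (SMARTer Stranded Total RNA-Seq Kit v2) that were sequenced as single-end reads of 100 bases. The authors checked reads with FastQC 0.11.5, trimmed them with Trimmomatic, aligned them to mm10 with STAR 2.7.3a and counted reads over exons on the reverse strand with featureCounts. The deposited values are raw counts of reads per gene, not normalised; reads that match several genes equally well are left out by default, which can lower Oxt and Avp.

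Identifiers were matched to symbols without their version (55141 of 55487). Fits used edgeR 4.0.16 in R 4.3.3 with TMM normalisation, filterByExpr and robust quasi-likelihood dispersions, within each tissue, with a call at an adjusted p under 0.1. The SE was taken from the F statistic. Groups followed the labels, and p-values measure the spread between these mice. Alternatives were DESeq2 1.42.0, its size factors, no filter, all libraries in 1 fit, a Y-linked covariate, a covariate from the hypothalamic regulators, removal of mitochondrial genes and removal of each mouse. Exact permutation tests were two-sided (scipy 1.17.1). Promoters came from RefSeq, GRCm38.p6, which covered 9 of 10 members. The fits were run on simulated counts with a low, even spread between libraries and changes only in well-counted genes. That run is no check on genes as scarce or variable as several members.

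The members and gene lists were chosen with earlier results of these data known. Every member was named, with Mettl5. Of each other list except the brain and liver markers, the counts and the 3 genes with the highest mean CPM were given. Genes called by edgeR with the filter were named too. Of genes called only by DESeq2 or with no filter, some were named and others only counted. Further genes are named as chosen after their values were seen. The letters pair liver and brain of a mouse, since both come from the same animal. The comparison of tissues was therefore also fitted with mouse as a block.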

Additional observations from a re-analysis of the deposited data

How the results depend on the processing

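Calls among the neuropeptide genes in brain changed under 1 alternative: with no filter on low counts 1 member, Trh, was called of 10 (log2 fold change 1.01, edgeR adjusted p = 0.0236), against 3.15% of all genes in that fit, whereas 0 were called under every other alternative, DESeq2 included. The number of genes called over the whole brain table was 11, and became 269 with DESeq2, 1000 with no filter, 3 with the regulator covariate and 2 to 23 when each mouse was left out. In liver it was 0 by edgeR (1032 genes at an unadjusted p under 0.05), 171 with DESeq2, 443 with no filter and 0 to 87 when each mouse was left out. With the regulator covariate, which overlaps with genotype, the log2 fold changes turned to -0.48 for Avp, -0.16 for Oxt, -0.33 for Pmch and -0.39 for Pomc. Leaving out single mice moved Avp between -0.67 and 1.02, Pmch between -0.27 and 0.90 and Pomc between -0.54 and 1.58. Without WT E, Avp was at -0.20 and Pmch at -0.025. The cause was not tested. The KO minus WT difference in the log2 ratio of members to regulators ranged from -0.27 to 0.48 without single mice. With mouse as a replicate block the count of members called higher in brain than in liver was 7, with and without the block, a count that the filter fixes and that shows no stability. Scarce reads limit Hcrt, Agrp and Ghrh.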
